A study of Homo sapiens with 7 samples.

Results

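TXNIP, 3 of its relatives among the arrestin-domain genes (ARRDC4, ARRDC2 and ARRDC3) and the 3 genes of the MondoA transcription factor group (MLXIP, MLXIPL and MLX) were followed in HEK-293 cells, an established human embryonic kidney cell line. The 7 genes were taken by symbol as a family, with earlier results of these data known. All 7 stood in the table of 19978 genes and passed the filter on low counts with 14863 genes in all. RNA was sequenced from 7 samples after 48 h of incubation, and by the methods all held the vehicle DMSO. They were control cells at pH 7.4 (2 samples), cells in acidosis at pH 6.6 (3 samples), and cells at pH 7.4 with 10 µM SRPIN340 (2 samples). SRPIN340 inhibits SRPK kinases, which phosphorylate SR-rich splicing factors. The study used the inhibitor so that acidosis could be set beside loss of SR protein phosphorylation. All samples are of 1 cell line. The labels number the samples of a group as repeats, and the methods call them biological repeats with 3 replicates in each. The table holds 1 column per repeat, so the spread within a repeat was not analysed here and the p-values rest on the spread between repeats.

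TXNIP encodes a protein with arrestin folds that binds thioredoxin and lowers glucose uptake, in part by drawing the glucose transporter GLUT1 (gene SLC2A1) into the cell. ARRDC4, ARRDC2 and ARRDC3 belong to the same alpha-arrestin family, whose members carry short motifs that recruit ubiquitin ligases of the NEDD4 family to membrane cargo. MLXIP encodes MondoA and MLXIPL encodes ChREBP, a pair of glucose-sensing factors that enter the nucleus when phosphorylated hexoses accumulate and bind DNA as dimers with MLX. TXNIP and ARRDC4 are their best known targets. Acidification of the medium is known in other cells to raise TXNIP and ARRDC4 through MondoA.

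The upstream sequences of TXNIP, ARRDC4 and ARRDC3 are shown because the first pair are the known MondoA targets and went opposite ways in acidosis, while ARRDC3 had the widest change of the 7 genes. Each is the 250 bases before the annotated start in RefSeq on GRCh38.p14, read 5′ to 3′ on the gene's strand. Capitals mark matches on either strand to CACGTG (E-box), to CCAAT (NF-Y box, ATTGG on the other strand) and to a CACGNG pair. The pair is CACGNG repeated in the same direction with 5 bases between, the spacing of a carbohydrate response element. Other spellings of that element were not searched for. TXNIP lies at chr1:145996580-145996829 (minus strand), ARRDC4 at chr15:97960453-97960702 (plus strand) and ARRDC3 at chr5:91383318-91383567 (minus strand).
TXNIP: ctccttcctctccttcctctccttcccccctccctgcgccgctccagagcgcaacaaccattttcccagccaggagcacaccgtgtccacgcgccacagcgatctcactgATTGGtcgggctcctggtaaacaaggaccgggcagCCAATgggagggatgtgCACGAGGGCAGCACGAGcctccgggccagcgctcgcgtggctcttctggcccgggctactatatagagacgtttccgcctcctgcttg
ARRDC4: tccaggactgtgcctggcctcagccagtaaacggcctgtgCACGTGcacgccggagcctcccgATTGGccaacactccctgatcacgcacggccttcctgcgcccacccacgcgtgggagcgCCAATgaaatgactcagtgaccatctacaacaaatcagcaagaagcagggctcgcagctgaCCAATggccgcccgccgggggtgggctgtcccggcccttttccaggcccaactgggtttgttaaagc
ARRDC3: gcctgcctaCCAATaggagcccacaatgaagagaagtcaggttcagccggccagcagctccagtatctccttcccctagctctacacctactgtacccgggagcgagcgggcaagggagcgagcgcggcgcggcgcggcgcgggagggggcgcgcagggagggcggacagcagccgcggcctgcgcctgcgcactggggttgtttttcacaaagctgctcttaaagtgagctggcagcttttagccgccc
The TXNIP window held the CACGNG pair from 88 to 72 bases before the start, and 2 CCAAT matches beyond it. That pair stood in 16 of 35116 windows of this length in the RefSeq table (0.0456%). The ARRDC4 window held CACGTG from 210 to 205 bases before the start and 3 CCAAT matches. The ARRDC3 window held a single CCAAT match and neither of the other motifs. Among the other members, MLX had CACGTG from 50 to 45 bases before its start. CACGTG was present in 2228 windows (6.34%) and CCAAT in 11240 (32.0%). A match is a description of the letters and no evidence that a factor was bound.

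The genes lie on 7 chromosomes, as annotated by GENCODE release 44 on GRCh38. TXNIP (ENSG00000265972.6) spans chr1:145992435-145996579 and its canonical transcript has 8 exons. ARRDC4 spans chr15:97960703-97973833, ARRDC2 chr19:18001132-18014102 and ARRDC3 chr5:91368631-91383317, each also with 8 exons. MLXIP spans chr12:122078756-122147344 and MLXIPL chr7:73593194-73624543, with 17 exons each. MLX spans chr17:42567072-42573239 and overlaps PSMC3IP on the opposite strand. The sources used here do not state whether the counting used strand, so a share of the MLX value could belong to PSMC3IP. ARRDC3 overlaps ARRDC3-AS1 on the opposite strand, and ARRDC2 overlaps ENSG00000279172 on the opposite strand, so the same limit holds for them. MLXIPL overlaps ENSG00000274080, a long noncoding RNA on its own strand. These 3 overlapping genes were not analysed here.

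The libraries held between 13615816 and 24110460 estimated counts, and the smallest count of a member in any library was 31.6 (ARRDC2, the second acidosis sample). Values are given as CPM, the usual depth-scaled count, here over library totals scaled by TMM, edgeR's factor for the composition of a library. These factors were 0.782 to 0.8 in acidosis and 1.17 to 1.21 in the other samples, so the scaling bears on every level in acidosis. Between acidosis and control the genes tested had a median log2 fold change of -0.052 with TMM and of -0.63 when only library totals were used. Under library totals alone a value for acidosis is to be read relative to that shift. Where the 7 genes change their call with it, that value is given beside the result. The share of called genes that were higher in acidosis was 43.0% with TMM and 13.5% with totals alone. Of the 5 HEK-293 markers chosen, all were detected: VIM stood at 867 ± 34.7 CPM (SD, n = 2) in control and 2714 ± 36.2 (n = 3) in acidosis, while PAX2 stood at 6.77 ± 0.401 and 1.81 ± 0.626. Of 5 markers of other cell types, PTPRC, ALB, PECAM1 and HBB summed to at most 1.51 CPM in any library, with PTPRC at 0.163 CPM in control and 0.707 in acidosis (adjusted p = 0.0473) and HBB at or near 0. COL1A1 was higher in acidosis (log2 fold change 1.02, edgeR adjusted p = 0.000104), and with it the 5 summed to 31.2 to 32.3 CPM in control, 28.7 to 38.6 with SRPIN340 and 58.7 to 66.6 in acidosis. Their part in the results below was not tested.

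In acidosis ARRDC3 rose 5.87-fold, MLXIP 2.40-fold and ARRDC4 1.75-fold, while ARRDC2 fell 2.10-fold and TXNIP 1.52-fold. MLXIPL and MLX did not pass the test. A gene is said to have risen or fallen where its Benjamini-Hochberg adjusted p over all 14863 genes was under 0.05, and is called where the absolute log2 fold change was also over 1. By that rule 2 members were called higher (ARRDC3 and MLXIP) and 1 lower (ARRDC2). Of all genes 14.4% were called higher and 19.1% lower. By adjusted p alone 3 members rose and 2 fell, against 32.5% and 34.2% of all genes. Changes of this kind were thus common in acidosis, and the counts of members are near what the whole table shows.

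**Figure D1:**
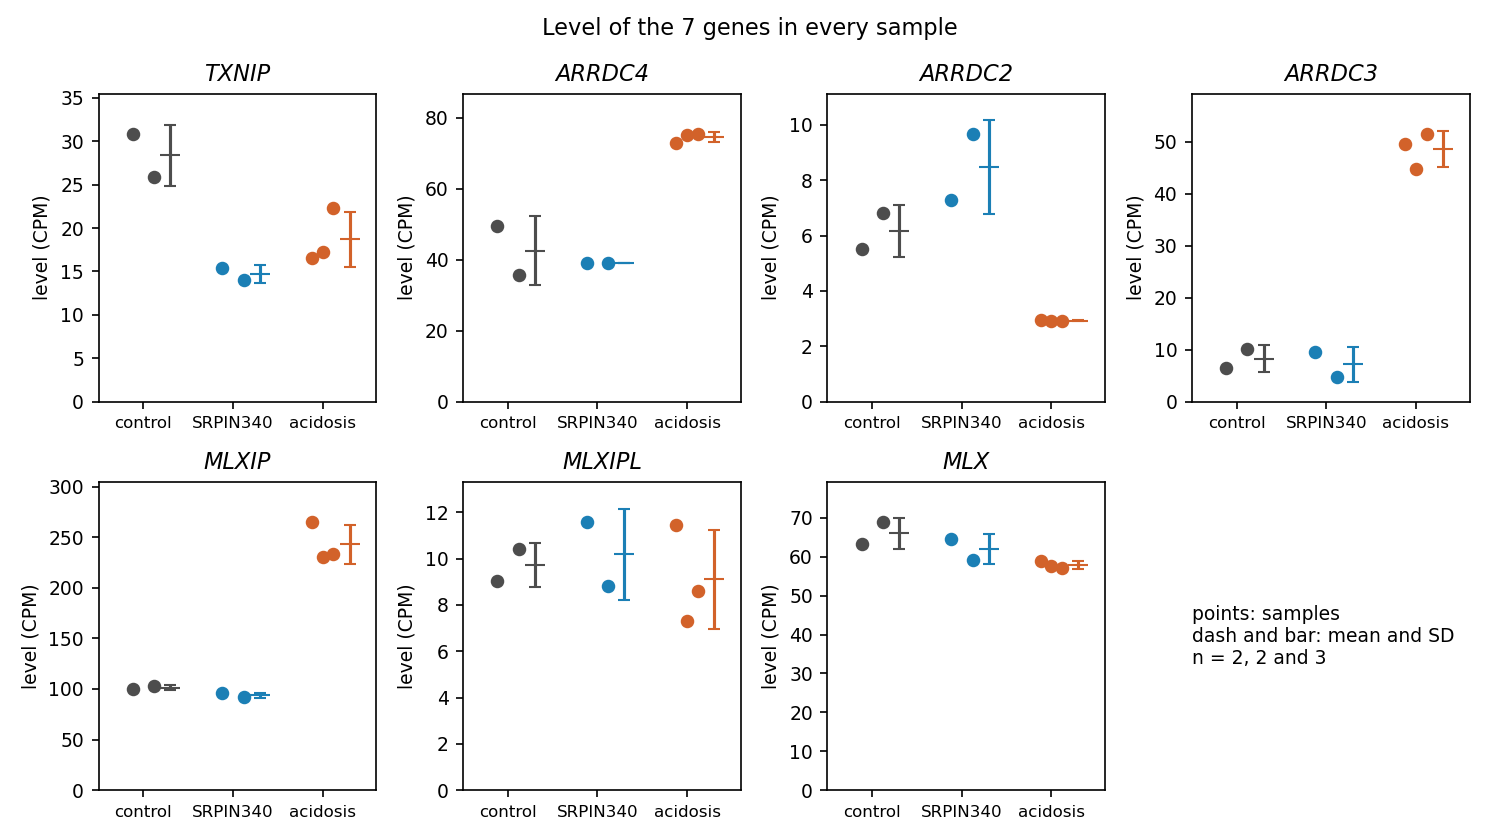
Level of each of the 7 genes in each sample, in CPM on a linear axis that starts at 0, by group. Points are samples, and a dash with a bar beside them gives the group's mean and SD (n = 2, 2 and 3). All 3 acidosis samples lie far above the control samples for ARRDC3 and MLXIP, and TXNIP lies below its controls both in acidosis and with SRPIN340.

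TXNIP stood at 30.9 and 25.9 CPM in the control samples and at 16.5, 17.2 and 22.3 CPM in acidosis. All 3 acidosis samples were below both controls, although the third came near the second control. The mean went from 28.4 ± 3.50 CPM (SD, n = 2) to 18.7 ± 3.14 (n = 3), a log2 fold change of -0.61 (SE 0.157, 95% interval -0.96 to -0.25, edgeR adjusted p = 0.00675). TXNIP no longer passed the adjusted p without the first control sample, which leaves a single control (log2 fold change -0.48). When only library totals were used the log2 fold change was -1.18, past the fold limit as well (adjusted p = 7.62e-05). TXNIP thus fell under each scaling, and only its size differed, with the median gene at -0.052 with TMM and -0.63 with totals. With TMM 31.3% of the genes tested had a lower log2 fold change in acidosis. The median absolute log2 fold change of all genes was 0.74, above that of TXNIP.

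ARRDC4, the member closest to TXNIP in function and likewise able to lower glucose uptake, went the other way. It stood at 49.4 and 35.6 CPM in control and at 72.9, 75.1 and 75.4 CPM in acidosis, with no overlap. The mean rose from 42.5 ± 9.80 CPM (SD, n = 2) to 74.5 ± 1.39 (n = 3), a log2 fold change of 0.81 (SE 0.131, 95% interval 0.52 to 1.10, edgeR adjusted p = 0.000382). The control samples were the more spread, and without the first of them ARRDC4 passed the fold limit too. With library totals alone the log2 fold change was 0.24 (adjusted p = 0.126), so that ARRDC4 was still higher than the median gene but no longer passed.

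ARRDC3, an adaptor that links NEDD4-family ligases to receptors such as the beta-adrenergic receptor, had the widest change of the 7 genes. It stood at 6.50 and 10.1 CPM in control and at 49.6, 44.8 and 51.5 CPM in acidosis. The lowest acidosis sample was far above the highest control. The log2 fold change was 2.55 (SE 0.278, 95% interval 1.93 to 3.18, edgeR adjusted p = 2.54e-05), above that of 97.8% of the genes tested. It was 1.98 with library totals alone, still called.

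ARRDC2, a less studied alpha-arrestin, was at low levels in control, as was ARRDC3, and fell. Its values were 5.50 and 6.83 CPM in control and 2.95, 2.90 and 2.93 CPM in acidosis. The acidosis samples were close together and all below the controls. The log2 fold change was -1.07 (SE 0.222, 95% interval -1.57 to -0.57, edgeR adjusted p = 0.0019), just past the fold limit, and it was not called without the second control sample. It was -1.64 with library totals alone, also called.

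Of the transcription factor genes only MLXIP, which encodes MondoA, passed the test. It stood at 99.6 and 103 CPM in control and at 265, 231 and 233 CPM in acidosis. Every acidosis sample was more than 2-fold above every control sample. The mean rose from 101 ± 2.55 CPM (SD, n = 2) to 243 ± 19.0 (n = 3), a log2 fold change of 1.26 (SE 0.0815, 95% interval 1.08 to 1.44, edgeR adjusted p = 7.61e-07). It was 0.69 with library totals alone (adjusted p = 3.57e-05), past the adjusted p and short of the fold limit.

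MLXIPL, the paralog that encodes ChREBP, was detected far below MLXIP and did not pass. It stood at 9.04 and 10.4 CPM in control and at 11.5, 7.29 and 8.59 CPM in acidosis, and the groups overlapped. The log2 fold change was -0.081 (95% interval -0.57 to 0.41, edgeR adjusted p = 0.759). The interval holds changes of some size in either direction, so a change of MLXIPL was not detectable here rather than absent. MLX, the shared partner of both factors, stood at 63.2 and 68.9 CPM in control and at 58.9, 57.6 and 57.1 CPM in acidosis. All acidosis samples were lower, but the log2 fold change of -0.19 did not pass (95% interval -0.38 to 0.0041, edgeR adjusted p = 0.0769). Both passed as lower with library totals alone, MLXIPL at -0.66 (adjusted p = 0.0211) and MLX at -0.76 (adjusted p = 2.93e-05), close to the median of all genes on that scale.

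With SRPIN340, TXNIP fell and none of the other 6 members passed. TXNIP stood at 15.4 and 13.98 CPM with SRPIN340, below every control sample and below every acidosis sample. Against control the log2 fold change was -0.95 (SE 0.172, 95% interval -1.34 to -0.56, edgeR adjusted p = 0.0318), a 1.93-fold decrease, short of the fold limit. Only 1.91% of the genes tested had a lower log2 fold change. Passing the adjusted p rested on all 4 samples. TXNIP no longer passed when any one of them was left out, which leaves a single sample in that group. The log2 fold changes were then between -1.07 and -0.82. With DESeq2 the adjusted p was 0.000186.

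The other arrestin-domain genes did not pass with SRPIN340. ARRDC4 stood at 39.1 and 39.0 CPM, within the range of the controls (log2 fold change -0.12, 95% interval -0.44 to 0.19). ARRDC3 stood at 9.55 and 4.80 CPM, also overlapping the controls (-0.20, 95% interval -0.87 to 0.46). ARRDC2 stood at 7.28 and 9.68 CPM, above both controls, but its log2 fold change of 0.46 did not pass (95% interval -0.048 to 0.96, edgeR adjusted p = 0.333). None of these intervals leaves out 0, and that of ARRDC3 is the widest of the 3.

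No gene of the MondoA group passed between SRPIN340 and control. MLXIP stood at 95.6 and 92.2 CPM with SRPIN340 (log2 fold change -0.11, 95% interval -0.30 to 0.084). MLXIPL stood at 11.6 and 8.80 CPM (0.069, 95% interval -0.46 to 0.59) and MLX at 64.6 and 59.3 CPM (-0.092, 95% interval -0.30 to 0.12). By edgeR 0 of the 7 members were called with SRPIN340, 1 passed the adjusted p (TXNIP, lower) and 1 had an unadjusted p under 0.05. DESeq2 likewise called 0 and passed 1. Calls were few in the whole table: 0.128% of all genes were called higher and 0.195% lower, and 0.767% and 1.53% passed the adjusted p as higher and lower.

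Set against SRPIN340 in place of control, the acidosis samples gave the same members for the arrestin-domain and MLXIP changes. ARRDC3 was 6.76-fold higher in acidosis than with SRPIN340 (log2 fold change 2.76, edgeR adjusted p = 1.62e-05) and MLXIP 2.59-fold higher (1.37, adjusted p = 4.65e-07). ARRDC4 was higher by 0.93 on the log2 scale (adjusted p = 0.000151), and ARRDC2 was 2.88-fold lower (log2 fold change -1.53, adjusted p = 0.000171). MLXIP was short of the fold limit with library totals alone (0.76, adjusted p = 1.78e-05). TXNIP, MLXIPL and MLX did not pass. MLXIPL differed by -0.15 (adjusted p = 0.564) and MLX by -0.098 (adjusted p = 0.341). With library totals alone both passed as lower, MLXIPL at -0.77 (adjusted p = 0.00976) and MLX at -0.71 (adjusted p = 4.74e-05). The median gene was then at -0.67. TXNIP was higher in acidosis by 0.34 on the log2 scale (95% interval -0.023 to 0.71, adjusted p = 0.0876), but lower by -0.27 with library totals alone (adjusted p = 0.146). Without the first acidosis sample the TMM value was 0.43 (adjusted p = 0.0485). In this comparison 2 members were called higher and 1 lower, beside 14.9% and 19.7% of all genes, and 3 passed the adjusted p as higher and 1 as lower, beside 32.8% and 35.0%. Higher genes made up 43.0% of all calls here with TMM and 12.3% with totals alone. The 3 comparisons share their samples in pairs, so they are not independent of each other.

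**Figure D2:**
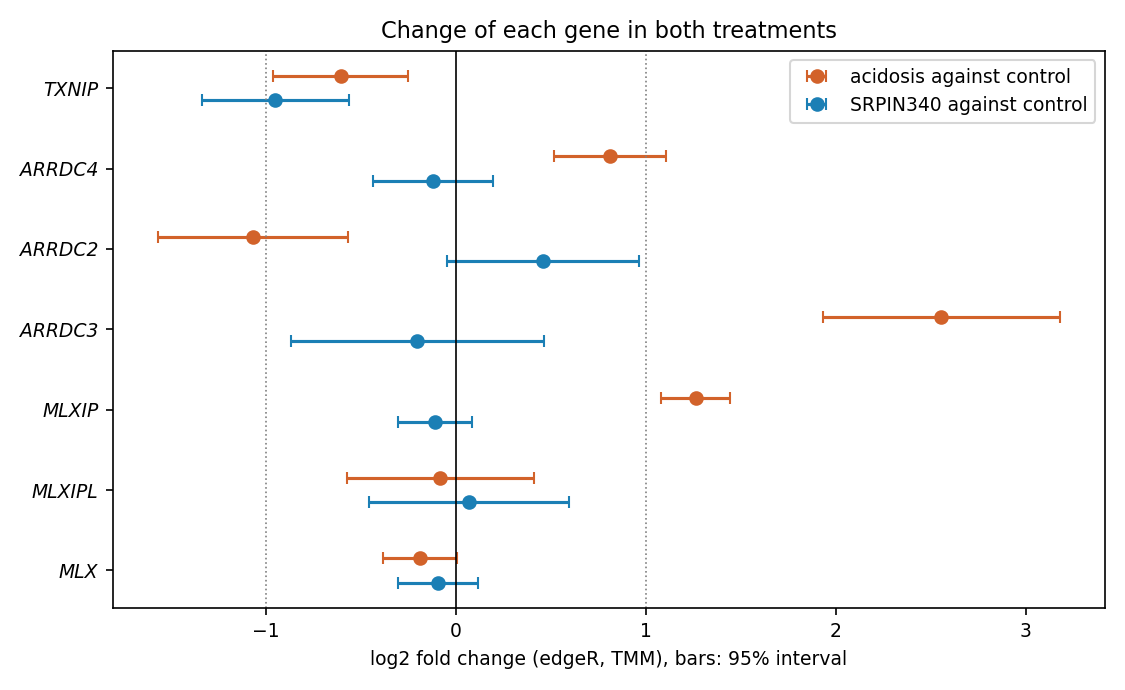
Log2 fold change of each of the 7 genes in acidosis and with SRPIN340, each against control, with the 95% interval from the edgeR fit as a bar and the fold limit of 1 on either side as dotted lines. Only ARRDC3, MLXIP and ARRDC2 lie past the limit in acidosis, and with SRPIN340 only the interval of TXNIP leaves out 0.

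Levels of different genes were compared as CPM per kilobase of the canonical transcript. In control samples the order was MLX (28.0), MLXIP (12.1), ARRDC4 (10.5), TXNIP (9.77), MLXIPL (2.99), ARRDC2 (2.46) and ARRDC3 (1.96). The sample ranges of MLXIP and ARRDC4, of ARRDC4 and TXNIP, and of ARRDC2 and ARRDC3 overlapped, so these neighbours could not be ordered. With SRPIN340 TXNIP dropped clear of ARRDC4 (5.06 against 9.61), and only ARRDC2 and MLXIPL overlapped (3.39 and 3.13). In acidosis the order was MLXIP (29.0), MLX (24.5), ARRDC4 (18.3), ARRDC3 (11.5), TXNIP (6.43), MLXIPL (2.80) and ARRDC2 (1.17), with no overlap between neighbours. MLX exceeded MLXIP at pH 7.4, and MLXIP exceeded MLX in every acidosis sample. This change of order rests on the canonical transcript lengths, as counts of MLXIP exceeded those of MLX in every sample. ARRDC3 was below TXNIP at pH 7.4 and above it in acidosis.

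Ratios of the counts of 2 genes in the same library do not depend on how libraries are scaled. The pairs were chosen with the results above known. TXNIP per ARRDC4 was 0.624 and 0.728 in control, 0.394 and 0.359 with SRPIN340, and 0.227, 0.229 and 0.295 in acidosis. The ratio was thus lower than control in both conditions, and lowest in acidosis, by -1.44 on the log2 scale in acidosis and -0.84 with SRPIN340. ARRDC3 per ARRDC2 was 1.18 and 1.48 in control, 1.31 and 0.496 with SRPIN340, and 16.8, 15.4 and 17.6 in acidosis, where the log2 difference from control was 3.65. ARRDC3 per TXNIP was 0.211 and 0.389 in control, 0.62 and 0.343 with SRPIN340, and 3.00, 2.597 and 2.31 in acidosis. Counts of ARRDC3 thus went from below those of TXNIP to above them, and exceeded those of ARRDC2 at least 15.4-fold in each acidosis library.

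MLXIP per MLX was 1.57 and 1.498 in control, 1.48 and 1.56 with SRPIN340, and 4.49, 4.01 and 4.08 in acidosis. MLXIPL per MLXIP was 0.0908 and 0.101 in control and 0.0433, 0.0316 and 0.0368 in acidosis. The MondoA transcript thus gained on both its partner and its paralog within each acidosis library. TXNIP per TXN, the transcript of its binding partner thioredoxin, was 0.341 and 0.272 in control, 0.175 and 0.151 with SRPIN340, and 0.0844, 0.0915 and 0.103 in acidosis (log2 difference of acidosis from control -1.72). For each of the 6 ratios computed, ARRDC3 per TXNIP among them, the acidosis and control samples did not overlap. The two-sided exact permutation test gave p = 0.1 for each, the smallest that 3 against 2 samples allow. With 2 against 2 samples the smallest is 0.333. As the pairs were chosen with the changes of their genes known, these values are a description and no separate test.

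**Figure D3:**
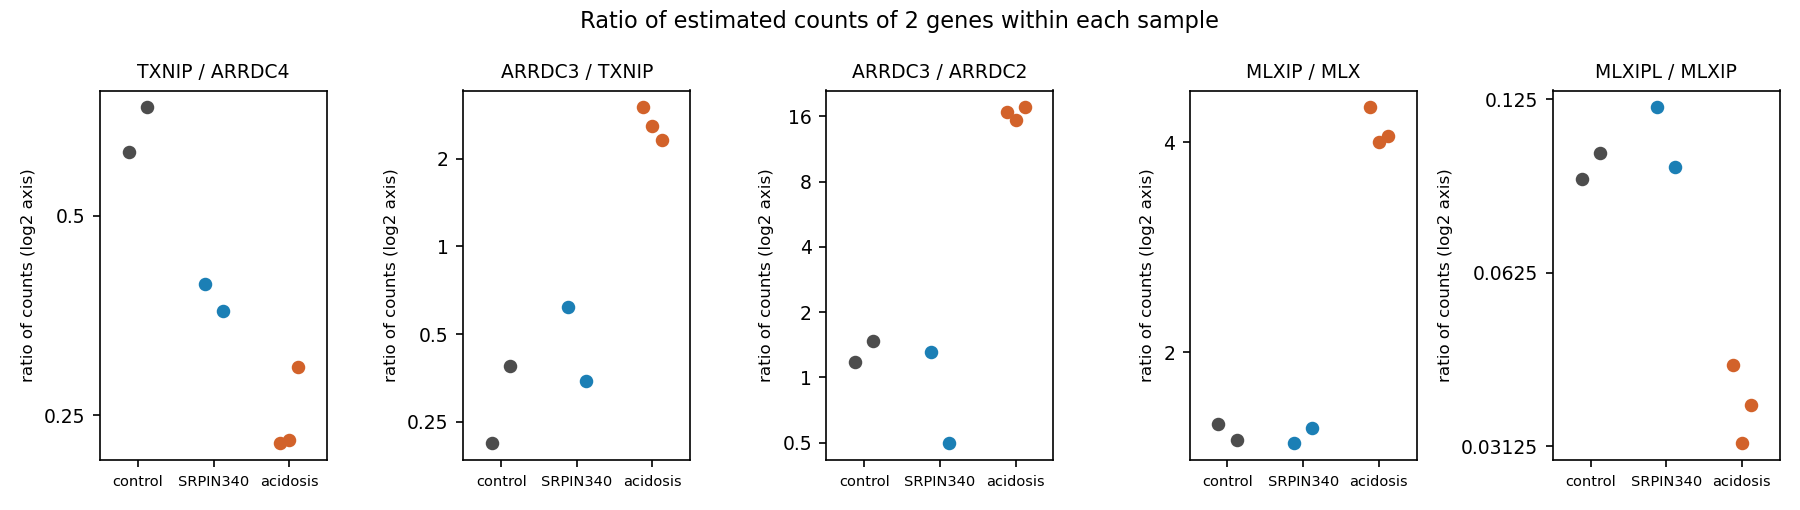
Ratio of the counts of 2 genes within each library, on a log2 axis, by group, for 5 of the pairs, with 1 point per sample. In each panel the 3 acidosis samples lie outside the range of the control samples.

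The genes around these proteins were taken as 8 lists of known partners and targets, 65 genes in all, of which 55 were tested. In acidosis 14 of the 55 were called higher and 9 lower, and 24 rose and 19 fell by adjusted p alone. These counts, and those of each list below, stand against 14.4% and 19.1% of all genes called higher and lower, and 32.5% and 34.2% that rose and fell by adjusted p. With library totals alone, which lower all values in acidosis alike, the sign turned to lower for VPS26C, WWP2, TXN2, TXNRD1, ACACA, SCD, PRKAB1, PRKAB2 and YWHAB. Among the genes named below, TXN, HK2, SLC2A3, SLC2A14, TKT, KLF10, FASN, YWHAZ and YWHAE were then short of the fold limit. ACLY, ACACB, ELOVL6, GPAM, WWP1 and PRKAA1 went past it.

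In the thioredoxin system 2 of 5 genes rose and 1 fell in acidosis. TXN, cytosolic thioredoxin and the partner of TXNIP, rose from 92.9 ± 3.48 CPM (SD, n = 2) to 200 ± 14.5 (n = 3), a log2 fold change of 1.11 (edgeR adjusted p = 1.82e-06). It rose with library totals alone as well (0.53, adjusted p = 0.000177). TXN2, the mitochondrial form, rose by 0.33 (adjusted p = 0.0111), and TXNRD3, a thioredoxin reductase, had a log2 fold change of -1.11 (adjusted p = 0.000421). TXNRD1 (0.0027, adjusted p = 0.975) and TXNRD2 (-0.093, adjusted p = 0.572) did not pass.

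Among glucose transporters and hexokinases 6 of 10 genes were tested, and 4 rose and none fell. SLC2A1, whose protein GLUT1 is cargo of TXNIP and ARRDC4, rose from 45.8 ± 2.41 CPM (SD, n = 2) to 165 ± 14.8 (n = 3), a log2 fold change of 1.85 (edgeR adjusted p = 2.1e-07). HK2, a hexokinase that phosphorylates glucose on entry, rose by 1.40 (adjusted p = 4.53e-06), and SLC2A3, which encodes the transporter GLUT3, rose by 1.41 (adjusted p = 3.11e-07). The reads of SLC2A3 and its near-identical copy SLC2A14 may be split between them, so their separate values are uncertain. With library totals alone 1 of the 4 was still past the fold limit, SLC2A1 at 1.28, while HK1 passed as lower at -0.61 (adjusted p = 1.71e-05).

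The other targets of MondoA or ChREBP were mixed: of 12 tested, 5 rose and 5 fell in acidosis, with a median log2 fold change of -0.43. TKT, transketolase of the pentose phosphate pathway, rose by 1.11 (edgeR adjusted p = 1.9e-06), and KLF10, a glucose-responsive transcription factor, rose by 1.18 (adjusted p = 1.22e-05). ACLY, which makes acetyl-CoA for lipid synthesis, had a log2 fold change of -0.77 (adjusted p = 3.3e-06). The list thus holds members that moved with ARRDC4 and members that moved with TXNIP.

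Of the MXD-family proteins that also dimerise with MLX, 2 of 3 rose. MXD1, a repressor that binds E-boxes, rose from 24.7 ± 0.227 CPM (SD, n = 2) to 186 ± 2.75 (n = 3), a log2 fold change of 2.91 (edgeR adjusted p = 1.73e-08), more than any of the 7 members. MNT, a related repressor, rose by 1.61 (adjusted p = 1.47e-05). Both were also called with library totals alone (2.34 and 1.04). MXD4 did not pass (-0.13, adjusted p = 0.596).

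The NEDD4-family ligases, which alpha-arrestins recruit, were split, with 3 of 9 rising and 4 falling. NEDD4L rose from 97.7 ± 3.46 CPM (SD, n = 2) to 299 ± 20.1 (n = 3), a log2 fold change of 1.61 (edgeR adjusted p = 1.24e-07). ITCH (-1.24, adjusted p = 0.000331) and WWP1 (-0.75, adjusted p = 0.000299) fell. Among other arrestins and arrestin-fold genes 1 of 7 rose and 4 fell. The retromer subunits VPS26B (-1.60, adjusted p = 4.39e-07) and VPS26A (-1.25, adjusted p = 8.35e-06) fell. The 2 beta-arrestin genes of receptor endocytosis went opposite ways. ARRB2 rose by 0.63 (adjusted p = 0.000192), a change that was 0.054 with library totals alone (adjusted p = 0.6). ARRB1 fell, with a log2 fold change of -1.79 (adjusted p = 0.000368) and of -2.36 with library totals alone.

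AMPK is a kinase that phosphorylates TXNIP and marks it for breakdown. Of its 6 tested subunit genes 2 rose and 3 fell in acidosis. PRKAG1 (-1.01, edgeR adjusted p = 1.65e-05), PRKAA2 (-1.06, adjusted p = 5.37e-05) and PRKAA1 (-0.64, adjusted p = 0.000112) fell. The 14-3-3 proteins hold MondoA and ChREBP in the cytoplasm, and all 7 of their genes passed the test, 5 as higher and 2 as lower. YWHAH rose by 1.58 (adjusted p = 3.59e-08), YWHAZ by 1.16 (adjusted p = 8.86e-08) and YWHAE by 1.05 (adjusted p = 3.84e-07). On library totals alone 4 of the 7 passed as higher and 2 as lower.

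**Figure D4:**
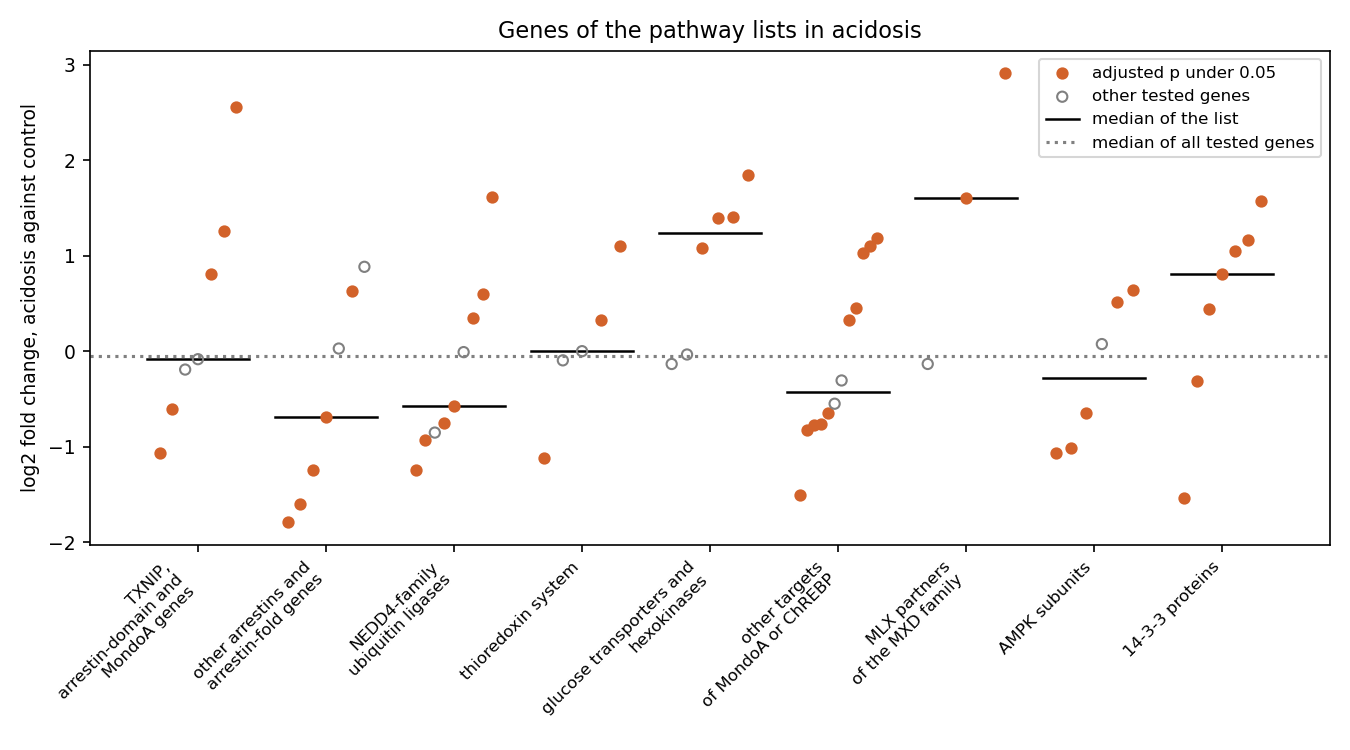
Log2 fold change in acidosis against control for each tested gene of the 7 members and the 8 lists of partners and targets, with the list's median as a black line and that of all tested genes (-0.052) as a dotted line. Filled points passed the adjusted p, and open ones did not. The medians of the glucose transporter list (1.24) and the MXD list (1.61) lie above the dotted line, and that of the other arrestins (-0.68) below it.

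With SRPIN340 none of the 55 tested genes of these lists was called by edgeR or by DESeq2, and 14 had an unadjusted p under 0.05 by edgeR, as had 17.6% of all genes. By adjusted p 3 fell and none rose: SCD, a fatty acid desaturase (-0.43, edgeR adjusted p = 0.00762), ACLY (-0.37, adjusted p = 0.0323) and YWHAE (-0.38, adjusted p = 0.025). Of all genes 1.53% fell and 0.767% rose by adjusted p with edgeR. DESeq2 passed 7 of the 55, 1 as higher and 6 as lower, and its share of all genes is not given here. The other lipogenic genes of the list did not pass, with FASN at -0.29, ACACB at -0.33, ACACA at 0.043, ELOVL6 at 0.18 and GPAM at 0.059. In acidosis ACLY fell as well, while SCD rose by 0.33 with TMM (adjusted p = 3e-04) and was lower by -0.25 with library totals alone. With TMM FASN (1.03, adjusted p = 2.18e-05) and ACACA (0.46, adjusted p = 0.00158) rose in acidosis. ACACB (-0.64, adjusted p = 0.0444), ELOVL6 (-0.76, adjusted p = 0.0493) and GPAM (-0.82, adjusted p = 7.98e-05) fell.

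The genes whose profile over the 7 samples was most like that of a member were sought among the 10114 tested genes that averaged 10 CPM or more, by the root mean square distance between centred log2 CPM. The samples form only 3 groups, so likeness over them describes mainly the 3 group levels. Nearest to TXNIP were FADS2, a fatty acid desaturase (distance 0.152), IFITM3, an interferon-induced membrane protein (0.16), and GPATCH4 (0.186). Their log2 fold changes with SRPIN340 were -0.72, -1.09 and -0.60, and in acidosis, which shares the control samples, -0.44, -0.61 and -0.45. These values follow from the choice of genes by profile and are a description only.

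Nearest to ARRDC3 were AOC3, an amine oxidase (distance 0.152), ADM, the vasodilator peptide adrenomedullin (0.247), and EPM2AIP1 (0.259). The ARRDC4 profile was closest to COL4A5 (0.0601), PRPF39 (0.0725) and C4orf3 (0.0727), and that of ARRDC2 to NADK2 (0.124), ITGB3BP (0.131) and KCNMB4 (0.134). MLXIP had OCIAD2 (0.0407), REXO1 (0.0465) and IFRD2 (0.0475) next to it. MLXIPL was nearest to TONSL (0.0661), TYK2 (0.0856) and CLK2 (0.09), and MLX to NSMCE2 (0.0363), STOML2 (0.0381) and RNASEH2A (0.0419). No member of the 7 was allowed as a neighbour of another. Distances are larger for genes that vary more, so they are not comparable between members.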

How the data were processed

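RNA of 7 HEK-293 samples was sequenced, as grouped by the labels. The authors trimmed the reads with Trimmomatic 0.39 and Trim Galore 0.6.6, ran Salmon 1.5.1 against transcripts of Gencode GRCh38.p13 and collapsed the result to genes with tximport, whose option is not given in the sources used here. They deposited estimated counts, not normalized between samples. Of 19978 genes, 19977 matched GENCODE release 44 by identifier.

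Rounded counts of all 7 samples entered one quasi-likelihood fit (edgeR 4.0.16, R 4.3.3) after TMM scaling and filterByExpr, with Benjamini-Hochberg adjustment over 14863 genes. Calls needed an adjusted p under 0.05 together with a log2 fold change beyond 1 in either direction. Standard errors came from the test statistic, and intervals from its t distribution. CPM were taken over TMM-scaled totals. No 2 libraries of a group agreed within sampling noise (chi-square per degree of freedom 6.85 to 12.2). The spread between repeats was thus wider than counting alone gives. The fit was tested on simulated data (14863 genes, 200 of them altered) and found 90% of the altered genes for acidosis and 89% for SRPIN340. These shares hold for the 200 altered genes as a set. How often the fit finds differences of the sizes seen for the 7 members was not tested. Nor was its recovery tested with as many altered genes as the 9917 that passed the adjusted p in acidosis. DESeq2 1.42.0, RLE size factors, library totals alone, no filter, the 2 groups alone, a replicate block, no fold limit and leaving out each sample were the alternatives.

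The members, lists and motifs were chosen with earlier results of these data known. From each list the text names up to 3 genes with the smallest adjusted p in acidosis, and every gene of a list with 5 or fewer tested, and beside each member the 3 genes with the nearest profile. Genes that a scaling turned, HK1 and ARRB1 were named after their values were seen. So were the 3 list genes that passed with SRPIN340 and the lipogenic genes beside them. Promoter windows were read from a RefSeq table (GRCh38.p14) with Python 3.11.15, and figures drawn with matplotlib 3.10.9. Splicing was not analysed here.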

Additional observations from a re-analysis of the deposited data

How the results depend on the processing

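The counts of called members in acidosis against control (3) and against SRPIN340 (3) stayed within 1.5 times under all alternatives but the removal of the fold limit for acidosis against control, which gave 5. With SRPIN340 it gave 1 in place of 0. With library totals alone the 3 called in acidosis against control were ARRDC2, ARRDC3 and TXNIP. Without one replicate the members called in acidosis numbered 2 to 4. Without the fold limit 9917 genes passed in acidosis, 342 with SRPIN340 and 10084 between acidosis and SRPIN340. In the lists it gave 5 other arrestins, 7 NEDD4-family ligases, 10 targets of MondoA or ChREBP, 5 AMPK subunits and 7 14-3-3 genes. With library totals alone 6 NEDD4-family ligases were called (2 with TMM), 1 thioredoxin gene (2), 1 glucose transporter (4) and 2 14-3-3 genes (4). Over all 14863 genes 6017 were then called, 815 higher and 5202 lower, beside 4985 called with TMM. AMPK subunits called numbered 2 with TMM, 1 with DESeq2 and 1 with RLE. The SRPIN340 calls over all genes were the least stable, at 48 with all samples and 11 to 66 without one replicate, 11 without the first SRPIN340 sample.

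Replicate numbers did not pair the samples (correlations of deviations between groups from -0.115 to 0.063). With the replicate block 27 genes were called with SRPIN340 and 0 AMPK subunits in acidosis, and TXNIP with SRPIN340 had an adjusted p of 0.0591 at -0.95.

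Among the members, signs turned only for changes that had not passed. Without one replicate, log2 fold changes in acidosis ranged from -0.29 to 0.058 for MLXIPL (0.0029 without the second control, 0.058 without the second acidosis sample). With SRPIN340 they ranged from -0.34 to 0.13 for ARRDC4, -0.14 to 0.25 for MLXIPL and -0.78 to 0.20 for ARRDC3. Between acidosis and SRPIN340, MLXIPL ranged from -0.36 to 0.052, and TXNIP was at -0.27 with library totals alone. The cause was not tested. With 2 or 3 samples a group, intervals were widest for MLXIPL, ARRDC2 and ARRDC3.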
